A study of Mus musculus with 16 samples.

Results

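The genes described here encode channels, carriers and pump subunits that move sodium, chloride, bicarbonate and potassium across epithelia. They were chosen by name, as a group of 9: Scnn1a, Scnn1b and Scnn1g (the epithelial sodium channel, ENaC), Cftr, Slc12a2, Slc26a6, Atp1b1, Fxyd3 and Fxyd4. The arrays named 34741 genes, 25863 of which were bright enough to be tested, and 8 of the 9 genes were among these. Scnn1g was the exception. Their transcripts were measured in whole mouse uterus, with 1 one-colour array for each of 16 samples. All mice had been ovariectomised at 4 weeks of age and kept for 2 to 3 weeks without ovaries, which removes the main source of estrogen, and they were sampled 6 h after 1 injection under the skin. The 4 groups of 4 samples were wild-type mice given castor oil with 0 ug/kg of estradiol (WT PLB), wild-type mice given 8 ug/kg of 17b-estradiol in that oil (WT E2), and mice of the genotype labelled Arg260 given the same treatments (Arg260 PLB and Arg260 E2). The Arg260 label names an arginine of estrogen receptor alpha (ERα), the nuclear receptor through which the uterus responds to estradiol. How that residue was altered is not stated in the sources used here. The comparisons asked what E2 did in each genotype, and whether the genotypes differed.

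Fluid in the uterine lumen is set by its lining epithelium. ENaC, built from alpha, beta and gamma subunits (Scnn1a, Scnn1b and Scnn1g), lets sodium enter the cell from the lumen, and water follows. CFTR is an apical anion channel, opened by phosphorylation through cyclic AMP, that passes chloride and bicarbonate outward. SLC12A2 (NKCC1) loads chloride into the cell across the basolateral membrane, and SLC26A6 exchanges chloride for other anions at the apical face. The Na,K-ATPase drives all of these by pumping sodium out and potassium in. ATP1B1 is its beta-1 subunit, needed to bring the pump to the membrane, and FXYD3 and FXYD4 (also known as CHIF) are small membrane proteins that bind the pump and tune its affinity for ions. In the rodent uterus estrogen is classically linked to fluid secretion and progesterone to its absorption.

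Levels are log2 of the processed spot signal, with 0 set at each array's 75th percentile. They can be compared between arrays for 1 probe, and not between probes. Each gene was read by 1 probe, apart from Slc26a6 with 3, so the sequences that stand behind the values are short. The Cftr probe (mm9, chr6:18270974-18271033, plus strand) and the Fxyd3 probe (mm9, chr7:31857207-31858634, minus strand) are shown because they make plain which piece of each transcript was read.
Cftr probe: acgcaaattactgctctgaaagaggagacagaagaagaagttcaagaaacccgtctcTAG
Fxyd3 probe: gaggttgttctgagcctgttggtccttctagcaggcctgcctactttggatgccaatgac
The capitals in the Cftr probe mark a stop codon that closes an open reading frame running through the whole 60-base probe, so it reads the end of the coding sequence, the tail by which the channel docks to scaffold proteins. The 60 bases of the Fxyd3 probe are spread over 1428 bases of the genome. It therefore bridges spliced exons. The remaining probes that stood for their genes lie on mm9 at chr6:125294843-125294902 (Scnn1a), chr7:129061584-129061643 (Scnn1b), chr7:128911932-128911991 (Scnn1g), chr6:117883603-117883662 (Fxyd4), chr1:166368263-166368322 (Atp1b1) and chr9:108815322-108815380 (Slc26a6). No annotation of that build was used here, so exons are not assigned.

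Few of these genes were called for E2, in a tissue where most genes were. In WT, 0 of the 8 tested genes were called (limma, Benjamini-Hochberg adjusted p under 0.05 over all genes) when 63.6% of all tested genes were (31.9% higher and 31.7% lower). Unadjusted limma p-values under 0.05 also numbered 0 of 8, beside 17181 of all 25863 tested genes. In Arg260, 2 of 8 were called, Scnn1b upward and Fxyd4 downward, against 64.3% of all tested genes (33.6% higher and 30.7% lower). When the E2 change was averaged over both genotypes, a contrast added after seeing the data, 3 of 8 were called against 72.9% of all tested genes (36.8% higher and 36.1% lower): Scnn1b rose, and Cftr and Fxyd4 fell. The median log2 change of the 8 genes stood at -0.12 (WT) and -0.03 (Arg260), beside -0.02 and 0.02 over all tested genes. Several members were measured loosely. Their 95% intervals in WT extended 0.27 to 0.98 to either side, beside a median of 0.296 over all tested genes. The uncalled WT changes of Cftr (-0.86) and Scnn1b (0.72) exceeded in size the all-gene median of 0.58, while those of the other tested members did not. A gene left uncalled is thus not shown to be unchanged. The tissue itself responded in both genotypes. Pgr, whose product binds progesterone and which estrogen is long known to induce, rose by 2.12 on the log2 scale in WT (SE 0.20, limma adjusted p = 2.6e-07) and by 2.37 in Arg260 (SE 0.20, adjusted p = 8.0e-08). Esr1, which encodes ERα, was read by 4 probes that disagreed in sign, with log2 changes between -0.53 and 0.25 in WT and between -0.35 and 0.40 in Arg260, so no direction is given for it. Those counts depend on how the arrays were scaled, as given further on for Slc12a2, Fxyd3 and Fxyd4.

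**Figure D1:**
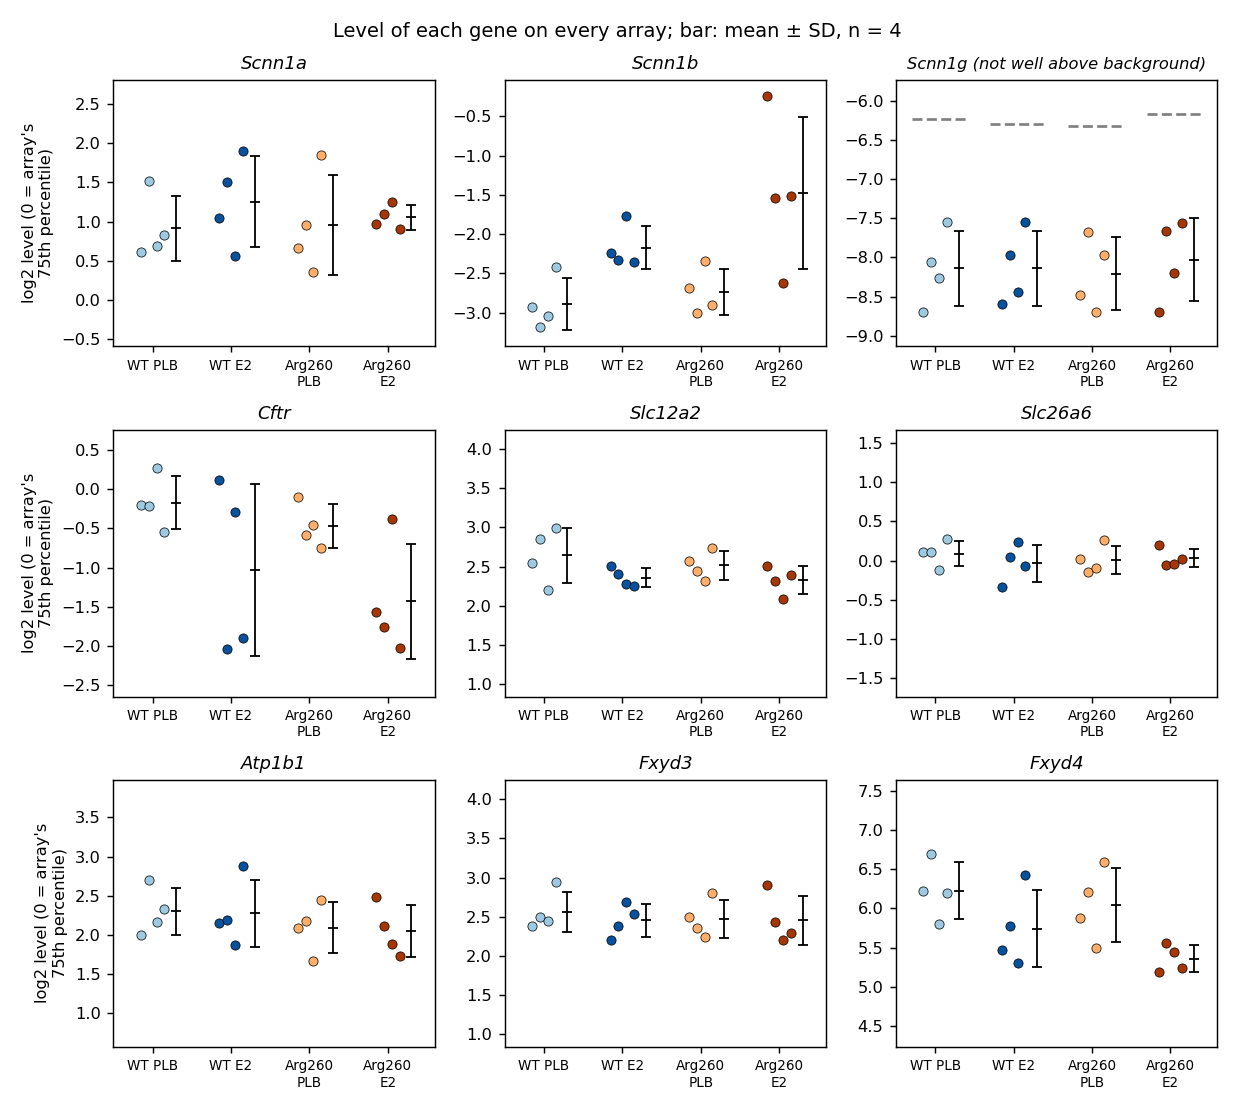
Each panel plots the log2 level of 1 gene (0 = the array's 75th percentile) on the 4 arrays of each group, from replicate 1 at the left to replicate 4, with the mean ± SD beside them. Every panel spans at least 3.4 log2 units. Cftr in E2 of both genotypes and Scnn1b in Arg260 E2 spread most. The dashed lines in the Scnn1g panel are the groups' means of each array's lowest signal well above background, which all 16 Scnn1g points lie under.

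Of the 2 sodium channel subunits bright enough to test, only Scnn1b was called, and that in Arg260. Scnn1b, whose product raises the amount of channel at the cell surface, stood at log2 levels of -2.93, -3.18, -3.04 and -2.42 on the WT PLB arrays (replicates 1 to 4) and at -2.24, -2.33, -1.76 and -2.36 on the WT E2 arrays. All 4 WT E2 arrays lay above all 4 WT PLB arrays, by a narrow margin between -2.42 and -2.36. That lack of overlap was shared by 59.1% of all genes without a missing value in that comparison. The log2 change in WT was 0.72 (SE 0.36, 95% interval -0.06 to 1.5), a 1.65-fold higher mean, with limma adjusted p = 0.0992. In Arg260 the levels were -2.69, -3.0, -2.34 and -2.91 on PLB and -0.24, -1.54, -2.62 and -1.51 on E2. Here 3 of 4 E2 arrays were above every PLB array, replicate 1 far above, while replicate 3 sat among the PLB values; over all genes 58.7% had groups that did not overlap in Arg260. Scnn1b rose by 1.26 on the log2 scale (SE 0.36, 95% interval 0.48 to 2.04), or 2.39-fold, with limma adjusted p = 0.00733. Leaving out 1 array at a time gave changes of 0.84 to 1.64 with adjusted p-values of 0.000289 to 0.0222. Averaged over genotypes the rise was 0.99 (SE 0.26, adjusted p = 0.00304).

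The arrays lay on 2 slides, each with 2 arrays of every group. In Arg260 the Scnn1b change was 1.96 within slide 1 (adjusted p = 0.00807) and 0.56 within slide 2 (adjusted p = 0.361), where replicate 3 lies. The difference between slides was not tested. With slide as a block, the fit gave 1.26 with adjusted p = 0.00975. In WT the changes within the slides were 0.77 and 0.67. The WT change passed the threshold with quantile normalisation (0.87, limma adjusted p = 0.0445), with the authors' deposited series table (0.74, adjusted p = 0.0467), and when only the WT arrays were fitted (0.72, adjusted p = 0.0120). It also passed without Arg260 E2 replicate 1 (adjusted p = 0.0237) or replicate 3 (adjusted p = 0.0353), arrays that enter the shared estimate of the spread.

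Scnn1a, the alpha subunit without which the channel does not conduct, gave log2 levels of 0.61, 1.52, 0.69 and 0.83 in WT PLB and 1.05, 1.51, 0.56 and 1.90 in WT E2. In Arg260 they were 0.67, 0.96, 0.36 and 1.84 on PLB and 0.97, 1.1, 1.26 and 0.90 on E2. The groups overlapped broadly in both genotypes, and 1 array a group held most of the spread in PLB: replicate 2 in WT and replicate 4 in Arg260. The log2 change was 0.34 in WT (SE 0.32, 95% interval -0.35 to 1.03, limma adjusted p = 0.376). It was 0.10 in Arg260 (95% interval -0.59 to 0.79, adjusted p = 0.800), a value that turned slightly negative (-0.0024) under quantile normalisation. Scnn1g, the gamma subunit whose cleavage by proteases opens the channel further, was not well above background on any of the 16 arrays. Its measured log2 values ran from -8.70 to -7.55 in WT PLB and from -8.60 to -7.55 in WT E2, from -8.70 to -7.68 in Arg260 PLB and from -8.70 to -7.56 in Arg260 E2. These are below the lowest signal counted as well above background on the arrays (-6.87 to -5.69), so no fold is given.

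For Cftr the E2 arrays split into high and low. WT PLB arrays had log2 levels of -0.20, -0.21, 0.27 and -0.55, and WT E2 arrays had 0.12, -2.04, -0.30 and -1.89. Arg260 PLB arrays had -0.10, -0.59, -0.46 and -0.75, and Arg260 E2 arrays had -1.57, -1.75, -0.38 and -2.03. The 8 PLB arrays kept close together. The 8 E2 arrays instead fell apart, with replicates 1 and 3 of WT E2 and replicate 3 of Arg260 E2 at PLB levels and the other 5 below every PLB array. No E2 array lay between -1.57 and -0.38. The SD over 4 arrays was 0.34 in WT PLB and 0.28 in Arg260 PLB, against 1.1 in WT E2 and 0.73 in Arg260 E2. The log2 change was -0.86 in WT (SE 0.46, 95% interval -1.84 to 0.12, limma adjusted p = 0.116) and -0.96 in Arg260 (SE 0.46, 95% interval -1.94 to 0.02, adjusted p = 0.0808). Averaged over genotypes, Cftr fell by 0.91 (SE 0.32, adjusted p = 0.0205), a mean 1.88-fold lower in E2.

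The side of the threshold on which Cftr fell changed with single arrays and with the arrays fitted. When only the Arg260 arrays were fitted, the Arg260 change of -0.96 had a limma adjusted p = 0.0378. Without WT E2 replicate 1 the WT change was -1.24 (limma adjusted p = 0.0227) and the Arg260 change kept its value with adjusted p = 0.0492. Without Arg260 E2 replicate 3 the Arg260 change was -1.31 (adjusted p = 0.0196). Without WT E2 replicate 2 the WT change was -0.52. Within slide 1 the average over genotypes was -1.04 (adjusted p = 0.0936), within slide 2 it was -0.78 (adjusted p = 0.237), and with slide as a block it kept adjusted p = 0.0261.

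Of the chloride loader Slc12a2, log2 levels were 2.55, 2.85, 2.20 and 2.99 in WT PLB and 2.51, 2.40, 2.28 and 2.25 in WT E2. In Arg260 they were 2.57, 2.44, 2.31 and 2.74 on PLB and 2.51, 2.31, 2.09 and 2.40 on E2. E2 arrays tended to the lower end in both genotypes, yet each group overlapped its control. The log2 change was -0.29 in WT (SE 0.15, 95% interval -0.62 to 0.04, limma adjusted p = 0.119) and -0.19 in Arg260 (95% interval -0.52 to 0.14, adjusted p = 0.294). With quantile normalisation the same values became -0.57 (adjusted p = 0.00353) and -0.51 (adjusted p = 0.00722), so Slc12a2 was called lower in both genotypes. The authors' deposited series table, itself quantile-normalised, gave -0.63 and -0.53, again called in both (adjusted p = 0.000473 and 0.00198). Without WT PLB replicate 3, its lowest control, the change in WT was -0.44 (adjusted p = 0.0114).

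The 3 probes of the anion exchanger Slc26a6 were read separately. The probe with the highest mean, which stood for the gene, had log2 levels of 0.10, 0.11, -0.13 and 0.27 in WT PLB and -0.34, 0.04, 0.23 and -0.08 in WT E2. In Arg260 it had 0.01, -0.15, -0.10 and 0.26 on PLB and 0.19, -0.06, -0.04 and 0.02 on E2. This was the steadiest member, with overlapping groups and log2 changes of -0.12 in WT (95% interval -0.39 to 0.15, limma adjusted p = 0.415) and 0.02 in Arg260 (95% interval -0.25 to 0.29, adjusted p = 0.881). The sign in Arg260 held under every scaling tried, and the intervals do not reach a change of 0.4 in either direction. A second probe (mm9, chr9:108814756-108814815) gave changes of -0.19 (adjusted p = 0.287) and -0.03 (adjusted p = 0.885). The last probe (mm9, chr9:108763641-108763700) lies 51056 bases from the second, and its values differed in 1 array. WT PLB replicate 2 read -8.33, not well above background, beside -3.23, -3.30 and -2.97 on the other WT PLB arrays, and the authors' deposited series table lists that value as missing. Its WT change of 1.28 (SE 0.86, adjusted p = 0.210) rests on that array.

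For the pump subunit Atp1b1, log2 levels were 2.00, 2.70, 2.16 and 2.33 in WT PLB and 2.15, 2.19, 1.87 and 2.89 in WT E2. In Arg260 they were 2.08, 2.18, 1.67 and 2.45 on PLB and 2.49, 2.12, 1.89 and 1.73 on E2. E2 and PLB arrays were thoroughly mixed. The log2 change was -0.03 in WT (SE 0.23, 95% interval -0.53 to 0.48, limma adjusted p = 0.931) and -0.04 in Arg260 (95% interval -0.54 to 0.46, adjusted p = 0.890), intervals that leave room for changes of about 1.4-fold either way. Fxyd3 read 2.38, 2.49, 2.44 and 2.94 in WT PLB and 2.21, 2.38, 2.69 and 2.53 in WT E2. In Arg260 it read 2.50, 2.35, 2.24 and 2.80 on PLB and 2.90, 2.44, 2.20 and 2.29 on E2. Again no group stood apart, with log2 changes of -0.11 (95% interval -0.48 to 0.26, adjusted p = 0.602) and -0.01 (95% interval -0.39 to 0.36, adjusted p = 0.948). Under quantile normalisation they were -0.39 (adjusted p = 0.0510) and -0.33 (adjusted p = 0.0887), and with normexp background and quantile normalisation -0.37 and -0.36, both called (adjusted p = 0.0395 and 0.0488).

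Fxyd4 was called lower after E2 in Arg260. Its log2 levels were 6.23, 6.69, 5.80 and 6.20 in WT PLB and 5.47, 5.77, 5.31 and 6.42 in WT E2. In Arg260 they were 5.88, 6.21, 5.49 and 6.59 on PLB and 5.19, 5.56, 5.45 and 5.24 on E2. In each genotype 3 of 4 E2 arrays were below every PLB array, the exceptions being WT E2 replicate 4, which was high, and Arg260 E2 replicate 2. Fxyd4 fell by 0.68 in Arg260 (SE 0.26, 95% interval -1.25 to -0.12, limma adjusted p = 0.0337), a mean 1.61-fold lower. The WT change was -0.49 (SE 0.26, 95% interval -1.05 to 0.08, adjusted p = 0.121), and the average over genotypes was -0.58 (SE 0.19, adjusted p = 0.0109). With quantile normalisation Fxyd4 was called in both genotypes, at -0.75 in WT (adjusted p = 0.0197) and -1.06 in Arg260 (adjusted p = 0.00210).

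The call for Fxyd4 in Arg260 was thinly held at the percentile scaling. It was lost without Arg260 E2 replicate 1 (-0.63, adjusted p = 0.0783) or 4 (-0.64, adjusted p = 0.0721), and without Arg260 PLB replicate 2 (-0.63, adjusted p = 0.0775) or 4 (-0.50, adjusted p = 0.113). Within slide 1 it was -0.67 (adjusted p = 0.0502) and within slide 2 -0.70 (adjusted p = 0.292), and slide as a block gave adjusted p = 0.0409. In WT the change passed the threshold within slide 1 (-0.84, adjusted p = 0.0249), but was -0.13 within slide 2. Without WT E2 replicate 4 it was -0.71 (adjusted p = 0.0209).

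**Figure D2:**
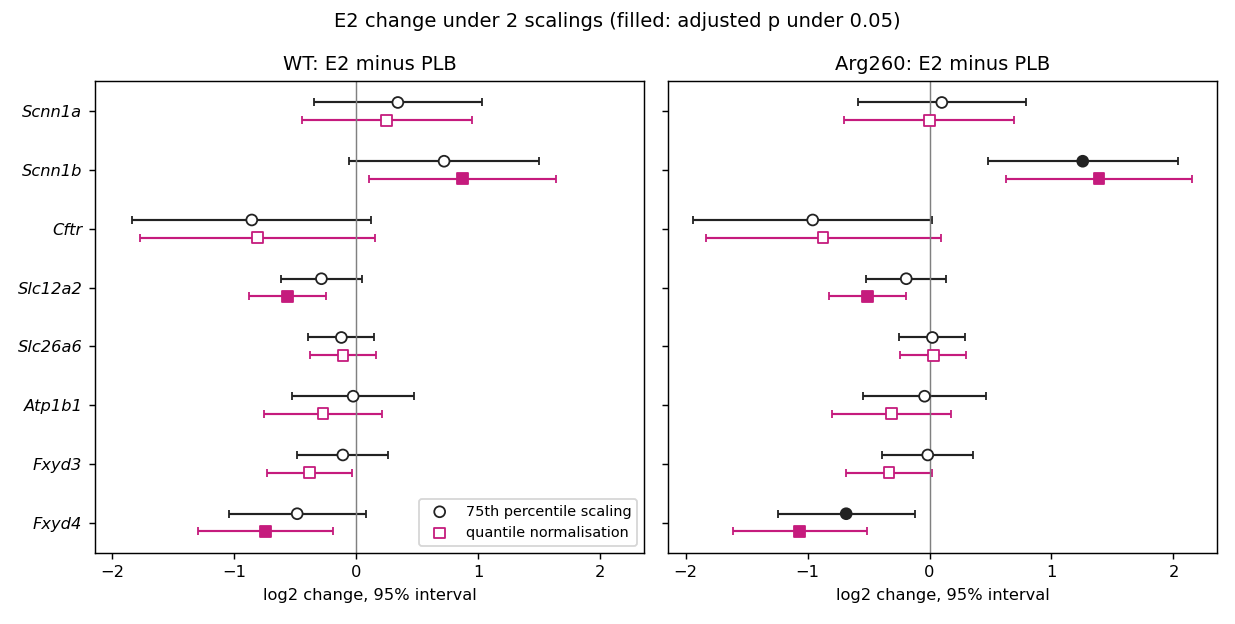
Points give the log2 change of E2 against PLB for the 8 tested genes in WT (left) and Arg260 (right), with 95% intervals from limma, under the 75th percentile scaling (circles) and quantile normalisation (squares); filled points have an adjusted p under 0.05. Under quantile normalisation the bright genes Slc12a2, Atp1b1, Fxyd3 and Fxyd4 sit further to the left in both panels, and 3 genes are called in each genotype.

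Bright genes as a class moved with the scaling. Among the 5994 tested genes with a mean log2 level over 2, the median E2 change in WT was 0.25 with the percentile scaling and -0.03 with quantile normalisation, and in Arg260 it was 0.29 and -0.03. For the 19869 genes at or under that level, WT had -0.11 and -0.03 under the respective scalings, and Arg260 -0.07 and -0.00078. In both genotypes and under either scaling, Slc12a2, Atp1b1, Fxyd3 and Fxyd4, the members over that level, had E2 changes below the median of these bright genes. The size and call of their own change depend on the choice. Cftr, a dimmer probe, moved little with it: with quantile normalisation it stood at -0.81 in WT and -0.87 in Arg260, neither called.

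No member differed between the genotypes beyond the threshold. The log2 difference between Arg260 and WT lay between -0.30 (Cftr) and 0.16 (Scnn1b) in PLB, with limma adjusted p = 0.9996 for each of the 8. In E2 it lay between -0.40 (Cftr) and 0.69 (Scnn1b). The latter had a 95% interval of -0.09 to 1.48, an unadjusted p of 0.0770 and an adjusted p of 0.712. The difference of the E2 responses was largest for Scnn1b, at 0.54 (SE 0.51, 95% interval -0.57 to 1.64, adjusted p = 0.9998). For the 8 genes together the 95% intervals of that difference extended from 0.38 (Slc26a6) to 1.39 (Cftr) to either side of the estimate, so a difference of 2-fold in the response cannot be told apart from none for Cftr, Scnn1a and Scnn1b. Over all tested genes 0 were called for either genotype comparison or for the difference of responses, with 638 (PLB), 1900 (E2) and 961 (difference) at an unadjusted p under 0.05. The groups of arrays did not overlap between genotypes in 0 of 8 members, beside 1.66% of all genes in PLB and 3.96% in E2.

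Whole uterus holds several cell types, and in such samples fewer cells of a type and less RNA per cell cannot be told apart. All 12 epithelial markers examined (among them Krt8, Epcam and Cdh1) were measured. Their mean log2 level was 1.37 to 1.85 in WT PLB, 2.03 to 2.41 in WT E2, 1.43 to 1.82 in Arg260 PLB and 2.00 to 2.49 in Arg260 E2. In WT 5 of the 12 rose and 2 fell, beside 31.9% and 31.7% of all tested genes, and in Arg260 7 rose and 2 fell, beside 33.6% and 30.7%. The mean over the list was thus higher on every E2 array than on any PLB array of its genotype, while single markers went either way. The mean of 7 adipocyte markers, such as Adipoq and Plin1, one of which (Lep) was not well above background on any E2 array, ran from 0.37 to 2.41 in WT PLB, from -4.94 to -0.59 in WT E2, from -0.05 to 1.52 in Arg260 PLB and from -2.64 to 0.51 in Arg260 E2. The mean of 8 stromal markers was lower in E2 by 0.87 in both genotypes. What part of the members' changes goes with these shifts was not tested.

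Within a group, several members rose and dipped on the same arrays. As a description over the 16 arrays, with each value taken as the deviation from its group's mean and groups of 4 sharing that mean, the deviations of Scnn1a and Fxyd4 had a Pearson correlation of 0.92. Atp1b1 went with both, at 0.78 with Scnn1a and 0.77 with Fxyd4. WT PLB replicate 2, WT E2 replicate 4 and Arg260 PLB replicate 4 were the highest arrays of their groups for all 3 genes. A different set followed the epithelial markers: the correlation with the deviations of the epithelial marker mean was 0.85 for Fxyd3, 0.74 for Slc26a6, 0.73 for Slc12a2 and 0.65 for Scnn1b, but 0.34 for Atp1b1, 0.16 for Fxyd4, 0.09 for Scnn1a and -0.15 for Cftr. Cftr deviated against every other member, with correlations of -0.48 to -0.20. Points on 1 array share its RNA and its scaling, so these values describe arrays and not separate measurements of each gene.

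The genes nearest to each member in pattern were sought among 16032 tested genes with an official symbol, by the root mean square difference over 16 arrays after centring each gene on its own mean. Cftr had the nearest neighbours for its size. Gabbr2, which encodes a subunit of the GABA type B receptor, differed from it by 0.10 log2 units while Cftr itself had an SD of 0.77 over the arrays, and Gabra2, a GABA type A receptor subunit, differed by 0.13. Gabbr2 read -0.28, -2.46, -0.67 and -2.01 on the WT E2 arrays and -1.85, -2.12, -0.82 and -2.49 on the Arg260 E2 arrays. These are the same 5 low and 3 high E2 arrays as for Cftr. Scnn1b was nearest to Ttc39a (0.32) and Serinc2 (0.34), with an SD of 0.73, and Fxyd4 to Cobl (0.21) and Fads2b (0.21), with an SD of 0.47. Fxyd3 was nearest to Smim22 (0.10) and to Tjp3 (0.14), a tight junction protein gene, with an SD of 0.23. Atp1b1 was nearest to Gldc and Sox17, Scnn1a to Rac3 and Lurap1, Slc12a2 to Cr1l and Rftn1, and Slc26a6 to Mprip and Ppib, at 0.09 to 0.25 log2 units against SDs of 0.16 to 0.44. Neighbours were picked for their likeness, so the differences carry no test.

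**Figure D3:**
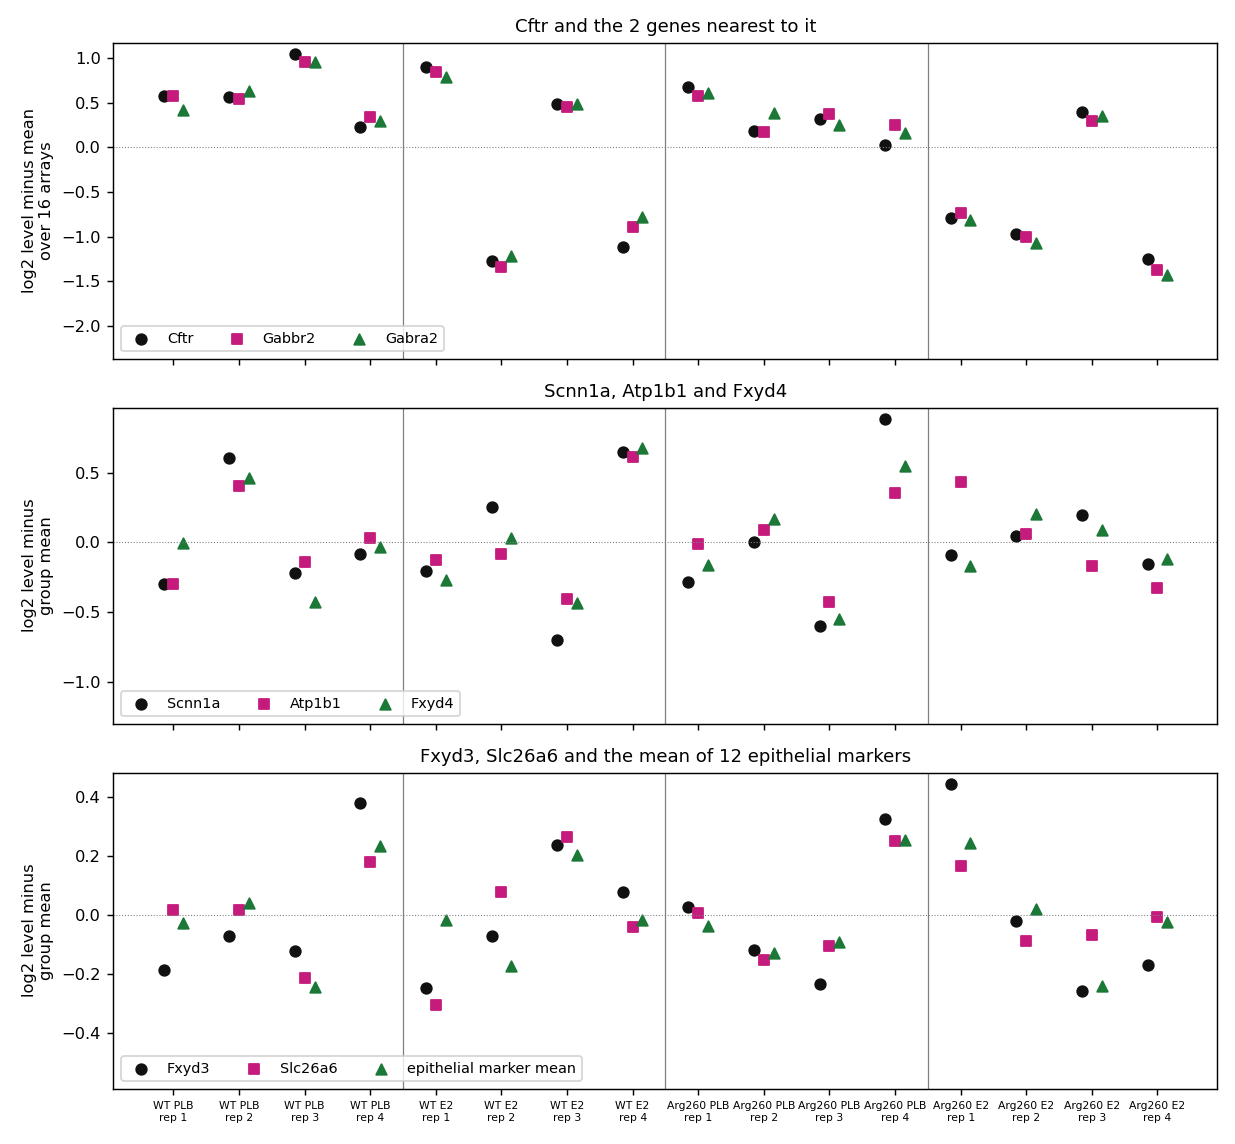
The top panel plots Cftr, Gabbr2 and Gabra2 on each of the 16 arrays as log2 level minus the gene's mean over all arrays; the middle and bottom panels plot log2 level minus the group mean for Scnn1a, Atp1b1 and Fxyd4, and for Fxyd3, Slc26a6 and the mean of 12 epithelial markers. Vertical lines part the groups. The 3 genes of the top panel drop together on 5 of 8 E2 arrays, the middle genes peak together on WT PLB replicate 2, WT E2 replicate 4 and Arg260 PLB replicate 4, and the bottom set follows the epithelial mean.

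Upstream sequence was available for 7 of the 9 genes (RefSeq, GRCm38.p6), as the 250 bases before the start of transcription. Those of the 3 members called on average over the genotypes are shown for their contrast in composition, 5′ to 3′ on the gene's strand.
Scnn1b (chr7:121864788-121865037, plus strand): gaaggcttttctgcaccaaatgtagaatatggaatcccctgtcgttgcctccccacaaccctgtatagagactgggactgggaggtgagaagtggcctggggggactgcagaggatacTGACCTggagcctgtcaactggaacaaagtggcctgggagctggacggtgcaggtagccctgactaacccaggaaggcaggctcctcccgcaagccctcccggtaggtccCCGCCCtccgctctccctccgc
Fxyd4 (chr6:117937336-117937585, minus strand): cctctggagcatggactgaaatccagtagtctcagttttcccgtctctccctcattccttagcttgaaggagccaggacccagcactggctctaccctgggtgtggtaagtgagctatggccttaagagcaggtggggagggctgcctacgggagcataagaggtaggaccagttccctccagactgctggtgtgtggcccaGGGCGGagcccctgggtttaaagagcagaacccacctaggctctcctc
Cftr (chr6:18170437-18170686, plus strand): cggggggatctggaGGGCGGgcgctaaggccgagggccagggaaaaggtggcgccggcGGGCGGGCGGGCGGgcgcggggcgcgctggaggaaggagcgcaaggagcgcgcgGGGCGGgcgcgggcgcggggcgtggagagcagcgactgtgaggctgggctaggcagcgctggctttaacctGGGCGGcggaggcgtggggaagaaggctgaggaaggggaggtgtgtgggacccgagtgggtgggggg
Capitals mark matches to AGGTCA, the recognition element that nuclear receptors such as ERα bind, and to GGGCGG, the GC box bound by Sp1 and its relatives, on either strand. AGGTCA occurred once, in Scnn1b, on the opposite strand at 132 to 127 bases before the start. It was found in 1 of 7 member windows and in 14.0% of 32851 windows of the same length. GGGCGG occurred in 6 of the 7 and in 32.7% of all windows; the Cftr window, 76.4% G and C, held it at 6 positions, some overlapping, and the Fxyd4 window, 58% G and C, at 1. The full palindromic estrogen response element, a pair of such elements facing each other, was in 0 of 7 and in 0.0639% of all windows, and TATAAA was in 0 of 7 and in 12.4%. GGGCGG and TATAAA were searched after the first look at the data. A match is a run of letters and not a site in use, and the windows are short.

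At the percentile scaling, other genes of these pathways were called at a rate close to that of all genes in WT and somewhat above it in Arg260. That excess was not tested. Across 6 lists of related genes, which do not include the members, 69 of 78 genes were tested. E2 raised 19 and lowered 25 of them in WT, or 63.8% called beside 63.6% of all tested genes. The Arg260 counts were 24 raised and 26 lowered, or 72.5% beside 64.3%. A total of 41 were called in the same direction in both genotypes, and 0 differed between genotypes by the interaction test. Under quantile normalisation the counts up and down became 19 and 28 for WT, and 19 and 29 for Arg260. The totals called, 47 in WT and 48 in Arg260, were then nearly alike, and the share over all genes at that scaling is not given here. The genes named by rank within their list (up to 2 highest and 2 lowest) kept their direction under all 4 other scalings and backgrounds, and the calls held too, save that Nr3c2 in WT was not called with normexp background and quantile normalisation.

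**Figure D4:**
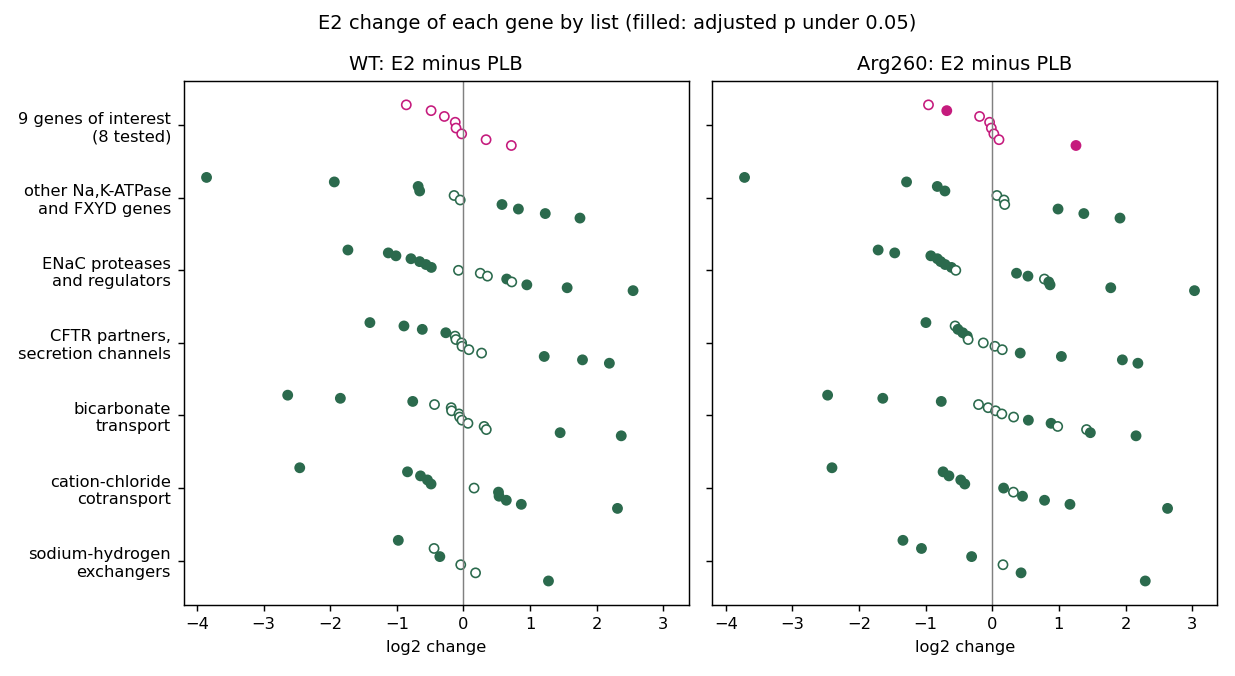
Each point is the log2 change of 1 gene with E2 in WT (left) or Arg260 (right), ordered within its list; filled points have a limma adjusted p under 0.05. The 8 tested channel and pump genes (top row) stay between -0.96 and 1.26, mostly open, while the lists below spread more widely, up to 3.04.

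Other genes of the pump moved in both directions. Of 10 tested Na,K-ATPase and FXYD genes, WT calls were 4 upward and 4 downward and Arg260 calls 3 upward and 4 downward, around medians of -0.09 and 0.12. Atp1b3, another beta subunit, rose by 1.23 in WT (SE 0.11, limma adjusted p = 1.1e-07) and by 1.37 in Arg260, beside changes of -0.03 and -0.04 for the beta subunit gene Atp1b1. Fxyd7 fell by 1.94 and 1.29.

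Regulators of ENaC moved in both directions. With 15 tested, WT had 4 upward and 7 downward calls (median -0.07) and Arg260 had 6 upward and 7 downward (median -0.55). These medians are the values of uncalled genes, Tmprss4 in WT (SE 0.54) and Hsd11b2 in Arg260 (SE 0.78). The median difference of responses over the list was 0.02. Nedd4l, the ubiquitin ligase that removes the channel from the membrane, rose by 2.55 in WT (SE 0.12, limma adjusted p = 3.1e-10) and by 3.04 in Arg260, or 5.84-fold and 8.2-fold. Sgk1, the kinase that restrains that ligase, rose by 1.56 and 1.78. Tsc22d3 (GILZ), which favours channel activity, fell by 1.73 and 1.71, and Nr3c2, the mineralocorticoid receptor gene, fell by 1.13 and 1.46.

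For CFTR partners and other secretion channels, 13 genes were tested. In WT 3 were called upward and 4 downward (median -0.03), and 4 each way in Arg260 (median -0.13). Pdzk1, a scaffold that binds the tail of CFTR read by the probe above, rose by 2.19 in both genotypes on the brighter of its 2 probes and by 1.11 (WT) and 1.59 (Arg260) on the other. Ezr, the linker between such scaffolds and actin, rose by 1.79 and 1.95. Adcy6, an adenylyl cyclase that makes the cyclic AMP on which CFTR depends, fell by 0.89 and 1.0. Ano1, a calcium-activated chloride channel, fell by 0.62 and 0.44.

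Among 14 tested genes of bicarbonate transport, upward calls numbered 2 in WT and 4 in Arg260 and downward calls 3 in each, around medians of -0.06 and 0.23. Car12, a carbonic anhydrase at the cell surface, rose by 2.37 in WT (SE 0.52, limma adjusted p = 0.0011) and by 2.16 in Arg260, and Slc26a2, a sulfate carrier of the same family as Slc26a6, rose by 1.45 and 1.47. Slc26a7 was called lower, with measured changes of -2.64 and -2.47. It was well above background on 4 of 4 PLB arrays and on 1 of 4 E2 arrays in each genotype, so these sizes rest mostly on E2 values not well above background. Slc26a11 fell by 1.85 and 1.64. For the member Slc26a6 the changes were -0.12 and 0.02.

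Of 11 tested cation-chloride cotransporters and kinases, 5 rose and 5 fell in each genotype, with medians of 0.16 and 0.17. Slc12a4 (KCC1), which carries potassium and chloride out of the cell, rose by 2.31 in WT (SE 0.11, limma adjusted p = 3.5e-10) and by 2.63 in Arg260. Slc12a8 rose by 0.64 and 1.17, and Wnk4, a kinase of this pathway, fell by 0.84 and 0.74. Of 6 tested sodium-hydrogen exchangers, WT had 1 upward and 2 downward calls (median -0.20) and Arg260 had 2 upward and 3 downward (median -0.07). Slc9a2 (NHE2), an exchanger of apical membranes, rose by 1.28 in WT (SE 0.30, adjusted p = 0.00186) and by 2.30 in Arg260, whereas Slc9a7, an exchanger of internal compartments, fell by 0.98 and 1.34.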

How the data were processed

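Total RNA of 16 uterus samples was read on one-colour (Cy3) Agilent arrays. The authors' scanner files, as deposited, give 1 intensity per spot; per the file headers these come from Feature Extraction 10.10.1.1, already background-subtracted and not scaled between arrays. A series table by the authors lists 37585 probes on the log2 scale, quantile-normalised as its equal column distributions show (median 8.69 in each column, no centring of genes found); it was an alternative. Processed signals were divided by each array's 75th percentile (922 to 1296 units) and put on the log2 scale. Outlier spots were dropped and spots of a probe averaged. Between 61.6% and 70.6% of non-control spots per array were well above background and 0 were saturated. Probes well above background on at least 4 of 16 arrays entered (38683 probes, 25863 genes, 134 with a missing value, which limma leaves out for that gene), and the brightest probe stood for a gene. Names followed a RefSeq table (GRCm38.p6): 27235 probes matched by accession, 3581 by symbol, 565 by synonym, and 24300 kept the file's name, which can be old.

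The 4 group means were estimated in 1 model over the 16 arrays, using lmFit and eBayes of limma 3.58.1 (R 4.3.3). Tests were two-sided, with p-values adjusted over all genes by Benjamini-Hochberg, and the code was tested on simulated data. The SE and 95% intervals are from this fit, with n = 4 arrays a group; the number of arrays limits the precision, and the median 95% interval of an E2 change extended 0.296 to either side. Beyond a number in each title, the labels do not say whether replicates were separate animals, so p-values measure the spread between these samples. The 16 arrays lay on 2 slides, replicates 1 and 2 on slide 1 and replicates 3 and 4 on slide 2. Alternatives were other backgrounds, scalings, filters and probe rules, the series table, slide and replicate blocks, single slides, another variance prior, single comparisons and left-out arrays. The members, gene lists, motifs and tests were chosen with earlier results of these data known. Genes named from a list are, as a rule, the 2 called genes with the highest and the 2 with the lowest E2 change averaged over genotypes; neighbours are the 2 with the smallest difference. Some genes that the list rule picks are not reported here. Scnn1g, below background in every group, was not tested. Proteins and Slc12a2 sequence were not used here.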

Additional observations from a re-analysis of the deposited data

Results flagged for a closer look

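Of 44 groups of 4 arrays examined over the 11 probes of the 9 genes, 2 held 1 array whose gap to its nearest neighbour exceeded Dixon's 95% limit for 4 samples, set on the gap as a share of the group's range. Chance marks about 1 in 20 groups. Both were probes of Slc26a6 that did not stand for the gene. On the probe at mm9 chr9:108814756-108814815, Arg260 E2 replicate 1 was high at a log2 level of -2.92, beside -3.32 to -3.29 on the other 3 arrays. On the probe at mm9 chr9:108763641-108763700, WT PLB replicate 2 was low at -8.33, beside -3.30 to -2.97; it was 1 of 228 values that the deposited series table lists as missing, all on that array.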

How the results depend on the processing

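The number of arrays, 4 a group, limits what can be seen: the median 95% interval of the difference of responses extended 0.418 log2 units to either side, and Scnn1g was too dim to compare. In all, 48 changes and 12 counts were recomputed under 31 alternatives, and where no cause is given it was not tested. Members called in WT numbered 0 as reported, 3 with quantile normalisation and with normexp plus quantile, 4 with the series table, and 1 with the replicate block, within slide 1 or with only the groups compared; leaving out 1 array gave 0 to 1. In Arg260 the 2 calls became 3 with quantile normalisation, the series table or the replicate block, and 4 with normexp plus quantile. They numbered 1 within slide 1 and 0 within slide 2, each with 2 arrays of every group, and 1 to 3 with 1 array left out. The average over genotypes had 5 calls in place of 3 with quantile normalisation, normexp plus quantile and the series table. It had 4 with the replicate block, 0 within slide 2, and 3 to 4 with 1 array left out. Beside these member counts, all genes called with 1 array left out numbered 15621 to 16690 in WT, 15853 to 16728 in Arg260 and 18456 to 18819 on average. All-gene counts of E2 changes under the other scalings are not given here. Over all genes, Arg260 against WT in E2 gave 2 calls with normexp and the 75th percentile, 1 with quantile, 3 with normexp plus quantile, 2 with the series table, 2 with a trended robust prior and 0 to 2 with 1 array left out, in place of 0.

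No clear pairing by replicate number was seen. Deviations of same-numbered arrays correlated at -0.11 to 0.26, 3 of 24 over 0.1, and those of other numbers at -0.28 to 0.30, 7 of 72 over 0.1. Of 16 arrays, 5 were closest to an array of their own number. Because the ranges overlap, this check cannot exclude a weak pairing. With the replicate block Cftr passed the threshold in WT (-0.86, adjusted p = 0.0422) and Arg260 (-0.96, adjusted p = 0.0257) and Slc12a2 on average (-0.24, adjusted p = 0.0266); calls of other members did not change with it.

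In 90 instances a change of a member turned its sign, none of them called as reported or under the alternative. By alternative these were as follows. With the mean of its probes, Slc26a6 had 0.32 in WT, 0.32 between genotypes in PLB, -0.28 for the difference of responses and 0.18 on average. That mean takes in the probe at mm9 chr9:108763641-108763700, whose WT change of 1.28 rests on the value of -8.33 on WT PLB replicate 2. With quantile normalisation Scnn1a had -0.0024 in Arg260 and Fxyd3 -0.019 between genotypes in E2; with normexp plus quantile these were -0.031 and -0.044, with the series table -0.016 and -0.025, and Fxyd3 had -0.013 with normexp and the 75th percentile. Within slide 1, Arg260 changes were 0.17 (Atp1b1) and 0.24 (Fxyd3), differences of responses 0.0093 (Scnn1a), 0.35 (Atp1b1) and 0.17 (Fxyd4), Scnn1a in PLB -0.25, Atp1b1 in E2 0.13 and Fxyd3 on average 0.051. Within slide 2, WT changes were 0.0061 (Slc26a6) and 0.13 (Atp1b1), Arg260 changes -0.020 (Scnn1a) and -0.087 (Slc26a6), differences of responses 0.36 (Cftr), -0.11 (Scnn1b), -0.093 (Slc26a6) and -0.19 (Fxyd3), PLB genotype differences 0.0076 (Slc26a6) and 0.042 (Fxyd4), and E2 genotype differences -0.0051 (Scnn1b), -0.085 (Slc26a6) and -0.37 (Fxyd3). Without WT PLB replicate 2 and Arg260 PLB replicate 3 together, Atp1b1 had 0.11 in WT, Scnn1a -0.10 and Slc26a6 -0.012 in Arg260, Slc12a2 -0.039 for the difference of responses, and in PLB Scnn1b had -0.070, Slc12a2 0.0049, Atp1b1 0.072 and Fxyd4 0.15.

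Leaving out 1 array at a time gave, in WT, -0.23 to 0.11 (Atp1b1) and -0.19 to 0.015 (Fxyd3). In Arg260 it gave -0.10 to 0.40 (Scnn1a), -0.031 to 0.11 (Slc26a6), -0.19 to 0.077 (Atp1b1) and -0.16 to 0.094 (Fxyd3). For the difference of responses it gave -0.45 to 0.28 (Cftr), -0.47 to 0.057 (Scnn1a), -0.019 to 0.25 (Slc12a2), -0.16 to 0.19 (Atp1b1), -0.052 to 0.20 (Fxyd3) and -0.38 to 0.028 (Fxyd4). Between genotypes it gave, in PLB, -0.25 to 0.24 (Scnn1a) and -0.20 to 0.034 (Fxyd3), and in E2, -0.43 to 0.019 (Scnn1a), -0.094 to 0.045 (Slc12a2), -0.036 to 0.15 (Slc26a6) and -0.14 to 0.090 (Fxyd3). On average over genotypes it gave -0.094 to 0.00089 (Slc26a6), -0.14 to 0.034 (Atp1b1) and -0.14 to 0.00017 (Fxyd3).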

Other observations

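Of the list genes outside the rule for naming, several that act on the channels were called in both genotypes. Among ENaC's proteases and inhibitors, Prss8 (prostasin) fell by 0.79 in WT and 0.82 in Arg260, Furin rose by 0.65 and 0.85, Tmprss2 rose by 0.95 and 0.87, and Serpine2, an inhibitor of serine proteases, fell by 1.01 and 0.92. Slc9a3r1 (NHERF1), a scaffold for CFTR, rose by 1.21 and 1.04. Fxyd5 rose by 0.83 and 0.99, whereas Fxyd1 (phospholemman) fell by 0.66 and 0.83 and Fxyd6 by 0.68 and 0.71. These genes were picked after their values were seen. All 8 kept their direction and their call in both genotypes under the 4 other scalings and backgrounds.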
